A study of Mus musculus with 6 samples.

Results

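The tumour necrosis factor (TNF) superfamily was followed across 6 Affymetrix 3' expression arrays of cultured mouse CD4 T cells. Its members were taken by name: every gene whose annotated symbol begins with Tnfsf (ligands) or Tnfrsf (receptors), together with Tnf, Lta, Ltb, Ltbr, Fas, Cd40, Cd40lg, Cd27 and Cd70. Of 18193 genes with a probe set of 1 symbol, 36 met this rule. They were 12 ligand genes, 23 receptor genes and Tnfsf13os, an antisense RNA that is neither. The probe set with the highest mean log2 intensity stood for each gene. Of the 36, 28 had enough signal to test (at least 1 array at or above the low-signal limit, an intensity of 64.4, which is the median of all values), among 11566 genes tested in all.

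Cells labelled Ezh2 KO and cells labelled wild type, both of strain C57BL/6, each gave a Th1 culture, a Th2 culture and an unpolarized culture, with 1 array per culture. Naive CD4 T cells (CD44 low, CD62L high) sorted from spleen were cultured for 5 days in all in 15 ng/ml IL-2, the first 2 days on plates coated with anti-TCR beta at 10 µg/ml, with 1 µg/ml of anti-CD28 and the last 3 days without either antibody. Th1 cultures received 1 ng/ml IL-12 with an antibody against IL-4, Th2 cultures 10 ng/ml IL-4 with an antibody against interferon gamma, and unpolarized cultures both blocking antibodies. The enzyme Ezh2 belongs to Polycomb repressive complex 2 and methylates lysine 27 of histone H3. The deleted part of Ezh2, the driver of the deletion and whether arrays came from separate mice are not given in the sources used here. With 1 array per genotype and culture, the 3 cultures stand in for replicates. The p-values therefore rest on how the genotype difference varied among the cultures on these 6 arrays, a spread that may be technical.

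TNF superfamily ligands are mostly trimeric membrane proteins, and their receptors carry cysteine-rich repeats outside the cell. Receptors without a death domain, such as 4-1BB, OX40, CD27 and GITR, recruit TRAF adaptors and switch on NF-kappaB, and on T cells they act as costimulators that prolong the response to antigen. Receptors with a death domain, such as Fas and TNF receptor 1, can assemble a caspase-activating complex through FADD or TRADD.

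For Ezh2 itself, intensities of 4876, 4946 and 4971 were recorded in the Ezh2 KO Th1, Th2 and unpolarized cultures and 6553, 7677 and 7002 in the matching wild type cultures. The signal was 1.43-fold lower in Ezh2 KO (limma adjusted p = 0.0436), and whether the probe set lies inside the deleted part is not known here, so it checks the label only in part. All arrays had a trimmed mean intensity of 500.003, and their medians lay between 61.1 and 68.8. The 8 CD4 T cell markers summed to intensities of 71225 to 80631 in Ezh2 KO and 73709 to 79739 in wild type. The brightest genes dominate these sums, and single markers moved apart. Cd4 read 300.2 to 433.0 in Ezh2 KO and 476.9 to 548.1 in wild type. Cd5 and Cd2 were also lower in Ezh2 KO without overlap. Cd3e, Cd3g and Cd28 were higher without overlap, and Cd3d and Thy1 overlapped. Of all these only Cd2 passed the genotype test given below. Below, the 3 values of a genotype stand in the order Th1, Th2 and unpolarized, and differences are log2 intensity, Ezh2 KO minus wild type, averaged over the 3 cultures with their SD (n = 3 differences). Values under an intensity of 11.3, the 20th percentile of all values, were raised to it before log2.

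Across the 3 cultures, Ezh2 KO cells carried more transcript of CD70, OX40 ligand, BAFF, TRAIL and the receptors 4-1BB and Tnfrsf23, and less of the receptor CD27. Of the 28 tested members, 6 rose in Ezh2 KO (Cd70, Tnfsf4, Tnfrsf9, Tnfrsf23, Tnfsf13b and Tnfsf10), 1 fell (Cd27) and 21 did not pass (limma, blocked on culture, with p-values adjusted by Benjamini-Hochberg over all tested genes and a threshold of 0.05). That is 21.4% of the tested members higher and 3.57% lower, against 8.37% and 8.05% of all tested genes. Over all genes that is 968 higher and 931 lower. With each array's median set equal it was 866 and 413 of 11565 genes, and the same 7 members passed. The share of all genes that was lower thus depends on the scaling. With equal medians it came down to about that of the members. At least 2-fold higher and past the threshold were 5 of the 28 (all but Tnfsf10), against 4.7% of all tested genes. By role, 4 of 11 tested ligands and 2 of 17 tested receptors rose. The median difference was 0.36 over the 28 members and -0.07 over all tested genes. Each array had been scaled to one target, so all values are relative to the bulk of the array.

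These counts depend on the filter. Cd70 and Tnfrsf23, both called, reached the low-signal limit on Ezh2 KO arrays only, as did Cd40, Tnfrsf11a and Tnfrsf21, and 0 members reached it on wild type arrays only. Among the 19 members at or above the limit on all 6 arrays, 3 rose (Tnfrsf9, Tnfsf4 and Tnfsf10) and 1 fell (Cd27), against 7.75% higher and 8.7% lower among all 9241 genes at that level. With a filter on the mean over all arrays instead, at the 60th percentile, 19 members were tested, 7 rose and 1 fell, against 15.1% and 20.9% of all genes tested that way. When low genes were kept in, or any single culture was dropped, 0 of the 7 calls remained, and the sign of each difference held in every such fit.

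**Figure D1:**
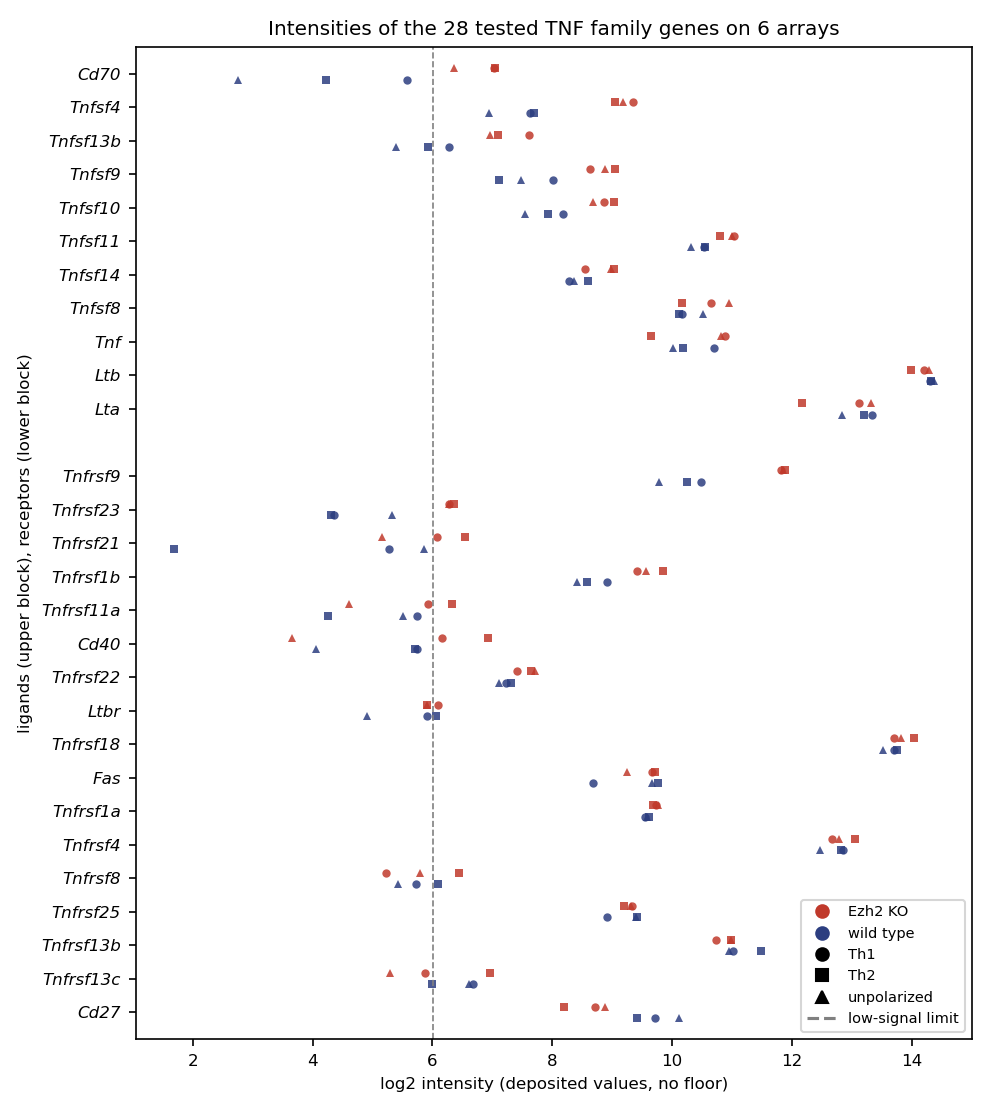
Log2 intensity of the 28 tested members on each array, with Ezh2 KO above wild type in each row, ligands in the upper block and receptors in the lower, and the low-signal limit as a dashed line. Red points lie to the right of all blue points for 11 members and to the left for 2, Cd27 and Ltb; levels of different probe sets are not comparable with each other.

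All 3 Ezh2 KO arrays read above all 3 wild type arrays for 11 of the 28 members (39.3%), against 20.1% of all tested genes. They read below them for 2 members (7.14%), against 27.5%. The sign was positive in all 3 cultures for 13 members and negative in all 3 for 2 (46.4% and 7.14%). Over all tested genes these shares were 26.2% and 36.3%. The sign was mixed for the other 13 members. Cd70 and Tnfrsf23, counted as separated upward and as positive, reached the low-signal limit on Ezh2 KO arrays only. Cd40, Tnfrsf11a and Tnfrsf21 did so too, but overlapped between genotypes and had mixed signs. All these shares depend on the filter. They were not recounted for members at or above the limit on every array.

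The receptor 4-1BB had the lower adjusted p of the 2 receptors that rose. Tnfrsf9, which encodes 4-1BB (CD137), a costimulatory receptor induced by activation, read 3620, 3769 and 3704 in Ezh2 KO cells and 1425, 1214 and 885.1 in wild type cells. The genotypes did not overlap, and the Ezh2 KO arrays lay within 1.04-fold of each other while the wild type arrays spanned 1.61-fold, with the unpolarized culture lowest. The difference was 1.68 ± 0.36, or 3.21-fold (95% interval 2.27 to 4.53, adjusted p = 0.0261). Of its other probe sets, the bright one gave 2.38 ± 0.52, and a dim one with no reading above 70.0 gave 0.56 ± 1.49. When all 3 were averaged the difference was 1.54 and the call was lost (adjusted p = 0.0569).

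RefSeq (build GRCm38.p6) lists a pair of start sites for Tnfrsf9, and the 250 bases before the downstream one, chr4:150927749-150927998 on the + strand, are shown because Tnfrsf9 was a receptor that rose with every array well over the low-signal limit. Capitals mark matches to the NF-kappaB consensus and to the AP-1 motif TGANTCA, factors through which T cell receptor and costimulatory signals act.
Tnfrsf9 downstream start: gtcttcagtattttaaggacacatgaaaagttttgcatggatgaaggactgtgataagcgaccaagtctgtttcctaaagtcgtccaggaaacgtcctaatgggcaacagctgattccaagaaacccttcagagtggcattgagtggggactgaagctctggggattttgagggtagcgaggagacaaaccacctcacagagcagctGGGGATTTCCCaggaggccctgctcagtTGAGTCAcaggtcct
The NF-kappaB match is counted as 2 overlapping ones, 1 per strand, and the AP-1 match as 1. The window before the upstream start held neither. Among all 32851 RefSeq windows of this length, 7.25% held the NF-kappaB consensus and 6.75% the AP-1 motif on either strand. A match is a description of the sequence, not evidence of binding.

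The ligand of 4-1BB moved the same way with a wider spread. Tnfsf9, which encodes 4-1BB ligand, read 394.9, 530.9 and 472.1 in Ezh2 KO cells and 257.7, 137.7 and 177.6 in wild type cells. There was no overlap, and the Th2 pair stood farthest apart. The difference of 1.32 ± 0.67 (2.50-fold, 95% interval 1.39 to 4.52) did not pass (adjusted p = 0.0633). It passed with the mean-based filter, the higher floor, an intensity trend in the variance or no culture block.

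OX40 ligand rose while its receptor did not pass. Tnfsf4, which encodes OX40 ligand, best known on antigen-presenting cells and also made by activated T cells, read 650.9, 528.7 and 582.1 in Ezh2 KO cells and 199.1, 208.2 and 123.2 in wild type cells. All Ezh2 KO arrays stood above all wild type arrays. The difference was 1.76 ± 0.45, or 3.40-fold (95% interval 2.25 to 5.13, adjusted p = 0.029). Tnfrsf4, which encodes the receptor OX40, gave 0.13 ± 0.27 (adjusted p = 0.533), with a 95% interval of 0.83- to 1.44-fold, and readings of 6547 to 8541 in Ezh2 KO cells that overlapped the 5651 to 7396 of wild type cells.

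CD70 and its receptor CD27 moved in opposite directions. Cd70, the ligand of CD27 and a marker of recent activation, read 130.2, 132.7 and 82.5 in Ezh2 KO cells and 47.9, 18.7 and 6.75 in wild type cells. All wild type readings were under the low-signal limit and the unpolarized one was at the floor. The difference of floored values was 2.38 ± 0.81, or 5.20-fold (adjusted p = 0.0368). Its size depends on the floor: with the floor at the 40th percentile it was 1.47. Cd27, a costimulatory receptor of naive and early memory T cells that is lost on effector cells, read 419.0, 292.8 and 473.9 in Ezh2 KO cells and 836.7, 684.2 and 1110 in wild type cells. The genotypes did not overlap, and within each genotype the Th2 culture was lowest and the unpolarized culture highest. The difference was -1.15 ± 0.13, or 2.22-fold lower in Ezh2 KO (adjusted p = 0.0217). RNA of whole cultures cannot tell fewer cells with Cd27 transcript from less transcript per cell, here and in all results below.

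The 250 bases before the Cd27 start (chr6:125237028-125237277, - strand, GRCm38.p6) are shown because Cd27 was the only tested member that fell. They held no NF-kappaB, AP-1 or IRF (interferon regulatory factor; GAAA, any 2 bases, GAAA) letters, so nothing is in capitals.
Cd27: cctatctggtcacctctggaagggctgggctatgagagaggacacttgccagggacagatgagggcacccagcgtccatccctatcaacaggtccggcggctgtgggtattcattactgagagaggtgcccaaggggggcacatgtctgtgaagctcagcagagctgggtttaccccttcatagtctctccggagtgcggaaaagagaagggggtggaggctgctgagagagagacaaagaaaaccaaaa
This window held 5 CpG dinucleotides. The median was 6 over all RefSeq windows (quartiles 2 and 16) and 8 over the 31 windows of the 27 members with an entry (quartiles 5 and 10.5). Among members that rose, the windows held 4 CpG before each Tnfrsf9 start, 5 and 6 before the Tnfsf13b starts, 6 before Tnfsf10 and 8 before Tnfrsf23.

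**Figure D2:**
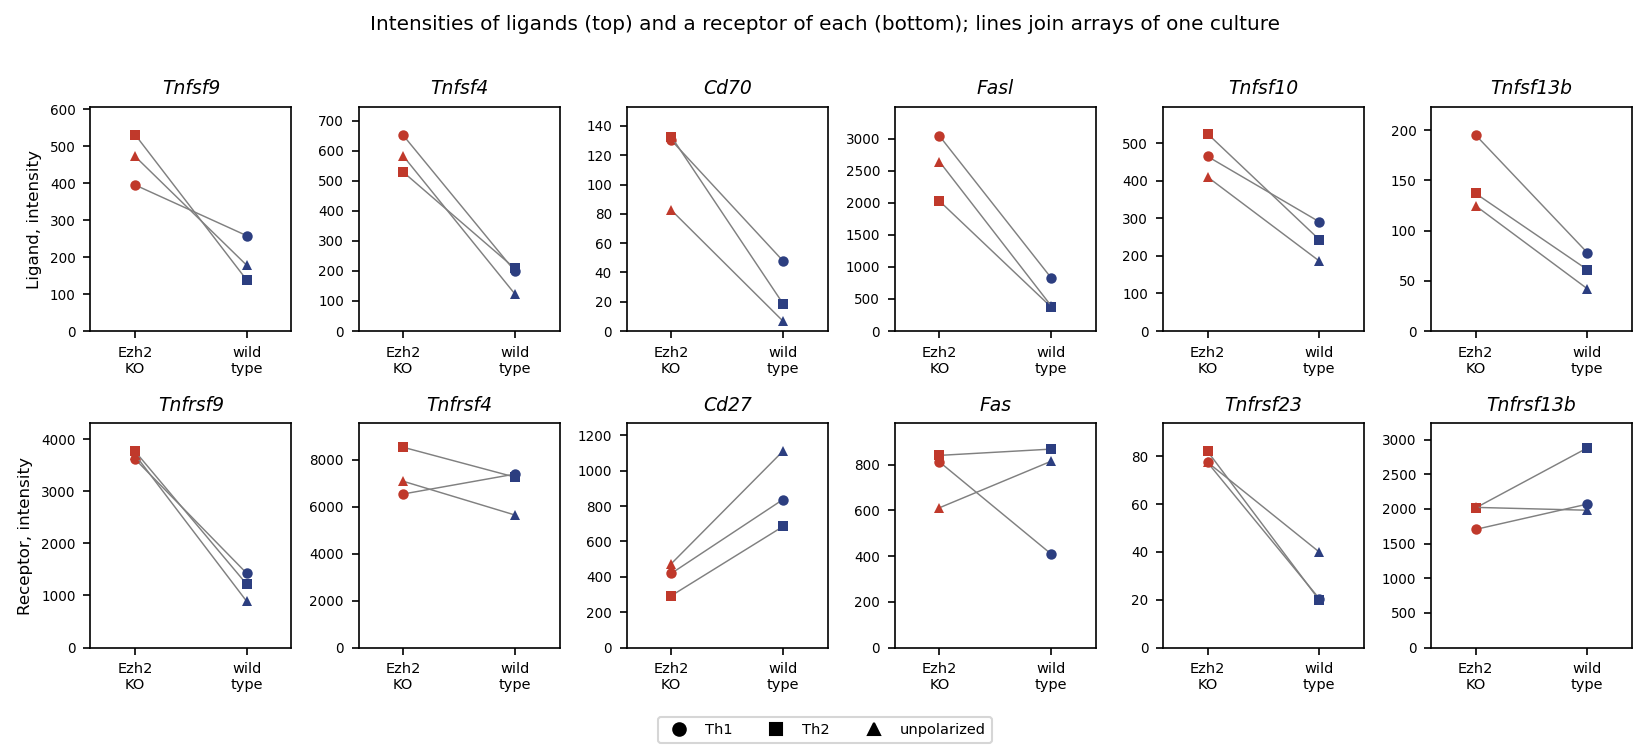
Intensity of a ligand (top row) and of a receptor that binds it (bottom row) on the 6 arrays, Ezh2 KO left and wild type right on a linear axis from 0, with lines joining arrays of one culture. The ligands drawn passed the genotype test, apart from Tnfsf9 (limma adjusted p = 0.0633). The fall of their lines toward wild type in all 6 columns therefore follows the selection. Tnf, Lta, Ltb, Tnfsf8, Tnfsf11, Tnfsf14 and the receptor genes Tnfrsf22, Tnfrsf10b and Tnfrsf13c are not drawn. Of the receptors drawn only Tnfrsf9 and Tnfrsf23 fall in every culture while Cd27 climbs in every culture. These are also the receptors that passed the genotype test, so their directions follow that result.

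Among the other costimulatory members 0 passed. Tnfrsf18, which encodes GITR, a receptor of activated and regulatory T cells, read 13320 to 16782 in Ezh2 KO cells and 11698 to 13791 in wild type cells (0.20 ± 0.17, adjusted p = 0.26). Its 95% interval, 0.93- to 1.42-fold, bounds the difference. Tnfrsf25, which encodes the death domain receptor DR3, gave 0.04 ± 0.34 (0.74- to 1.42-fold). Tnfsf8, the ligand of CD30, read 1154 to 1978 in Ezh2 KO cells and 1106 to 1460 in wild type cells (0.33 ± 0.23, adjusted p = 0.15). Its receptor gene Tnfrsf8 gave 0.07 ± 0.50 with readings of 37.3 to 86.8 on all arrays. Cd40, a receptor of B cells and antigen-presenting cells, gave 0.41 ± 0.81 from readings between 12.6 and 122.0. Cd40lg, the CD4 T cell ligand of CD40, never reached the low-signal limit, with readings of 5.69 to 39.3 in Ezh2 KO cells and 38.2 to 47.3 in wild type cells.

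Of the ligands known for inducing cell death, TRAIL rose. Tnfsf10, which encodes TRAIL, an apoptosis-inducing ligand, read 464.6, 524.9 and 409.8 in Ezh2 KO cells and 290.7, 243.4 and 186.4 in wild type cells. Every Ezh2 KO value exceeded every wild type value. The difference was 0.97 ± 0.26, or 1.96-fold (95% interval 1.503 to 2.57, adjusted p = 0.0336). The other probe sets of Tnfsf10 gave 1.39 ± 0.84 and 1.03 ± 0.75, and the mean of all 3 gave 1.13 without passing (adjusted p = 0.0536). Fasl, which encodes Fas ligand and is a family gene outside the naming rule, read 3045, 2029 and 2644 in Ezh2 KO cells and 830.7, 374.7 and 394.2 in wild type cells (2.35 ± 0.44, 5.11-fold, adjusted p = 0.0217).

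TRAIL is known as an interferon-induced gene, so the 250 bases before its start (chr3:27316827-27317076, + strand, GRCm38.p6) are shown. They too held 0 matches to the 3 motifs, against 2.98% of all windows with the IRF motif.
Tnfsf10: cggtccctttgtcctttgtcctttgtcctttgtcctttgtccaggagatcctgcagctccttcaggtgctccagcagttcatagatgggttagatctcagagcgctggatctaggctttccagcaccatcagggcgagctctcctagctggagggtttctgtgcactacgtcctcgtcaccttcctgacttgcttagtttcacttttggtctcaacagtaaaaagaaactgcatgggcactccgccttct
The absence of these letters from this window says nothing about sites elsewhere.

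The receptors of these ligands behaved differently from one another. Fas, the death receptor bound by Fas ligand, read 812.2, 840.7 and 611.5 in Ezh2 KO cells and 409.4, 868.2 and 815.1 in wild type cells. The genotypes overlapped, because the Th1 pair was higher in Ezh2 KO and the others were not (0.18 ± 0.73, adjusted p = 0.714). Tnfrsf10b, the mouse death receptor for TRAIL, had readings from 34.1 to 53.6 on its chosen probe set, all under the low-signal limit. A second probe set reached 81.6 and gave 0.03 ± 1.69. Tnfrsf23, a mouse decoy receptor that binds TRAIL and has no death domain, read 77.5, 82.1 and 77.6 in Ezh2 KO cells and 20.5, 19.9 and 39.99 in wild type cells. The genotypes did not overlap, but the Ezh2 KO readings were close to the low-signal limit and the wild type readings under it. The difference was 1.64 ± 0.60, or 3.12-fold (adjusted p = 0.0404), and 1.048 with the floor at the 40th percentile.

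Tnfrsf22, the neighbouring decoy receptor gene and a close paralogue, read 170.0 to 209.9 in Ezh2 KO cells and 137.8 to 158.6 in wild type cells. Its difference of 0.37 ± 0.22 did not pass (adjusted p = 0.113), and a second probe set gave 0.74 ± 0.46. Probe sets of close paralogues can share signal, which was not tested. Tnfrsf21, which encodes the death domain receptor DR6, read 67.3, 93.7 and 35.7 in Ezh2 KO cells and 38.6, 3.21 and 58.3 in wild type cells. The genotypes overlapped, most readings were under the low-signal limit, and the mean of floored values, 1.048 ± 1.89, did not pass (adjusted p = 0.402). A second, dimmer probe set gave 1.09 ± 0.85.

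The founding ligands of the family did not pass. Tnf read 801.4 to 1899 in Ezh2 KO cells and 1041 to 1668 in wild type cells (0.14 ± 0.67, adjusted p = 0.746). Lta, which encodes lymphotoxin alpha, read 4632 to 10270 in Ezh2 KO cells and 7298 to 10349 in wild type cells (-0.25 ± 0.76, adjusted p = 0.619). For both genes the Ezh2 KO Th2 array was the lowest of all 6 and the difference was positive in the unpolarized pair. Ltb, which encodes lymphotoxin beta, read 16311 to 19918 in Ezh2 KO cells and 20353 to 21205 in wild type cells. These did not overlap, but the difference of -0.17 ± 0.14 did not pass (adjusted p = 0.265).

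Tnfrsf1a, which encodes TNF receptor 1, read 817.9 to 866.2 in Ezh2 KO cells and 750.5 to 787.9 in wild type cells (0.14 ± 0.08, adjusted p = 0.287). Tnfrsf1b, which encodes TNF receptor 2, a TRAF-binding receptor of activated and regulatory T cells, read 680.7, 923.5 and 755.3 in Ezh2 KO cells and 482.0, 380.8 and 339.4 in wild type cells. These did not overlap, and the difference of 0.98 ± 0.42 (1.97-fold, 95% interval 1.33 to 2.90) missed the threshold (adjusted p = 0.053). A second, dimmer probe set gave -0.38 in Th1, -0.29 in Th2 and 2.004 in unpolarized cultures. With its chosen probe set Tnfrsf1b passed under the same 4 alternatives as Tnfsf9, and it did not pass with all probe sets averaged. Ltbr, the lymphotoxin beta receptor, mainly of stromal and myeloid cells, read between 30.03 and 68.4 and gave 0.34 ± 0.59. Tnfsf14, which encodes LIGHT, a ligand of that receptor, gave 0.44 ± 0.17 (adjusted p = 0.0728), and its receptor gene Tnfrsf14 (HVEM) never reached the low-signal limit.

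**Figure D3:**
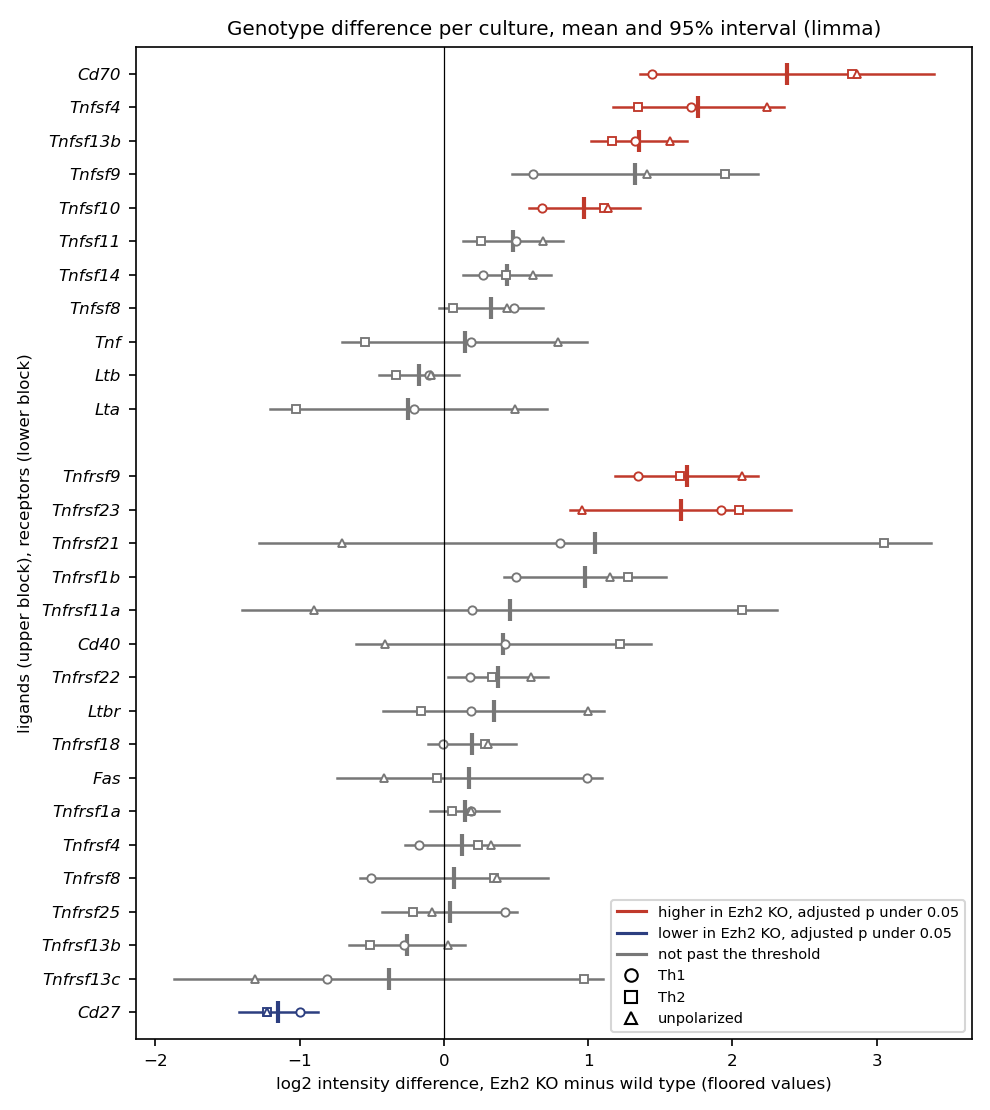
Log2 difference in intensity, Ezh2 KO minus wild type, for each of the 28 tested members, with a symbol per culture, a tick for the mean and a line for its 95% limma interval. Red members (6) and the blue one (Cd27) passed an adjusted p of 0.05, with means from 0.97 to 2.38 and of -1.15.

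Of the ligands better known for B cells and bone, the B cell survival factor BAFF rose. Tnfsf13b, which encodes BAFF and is mostly made by myeloid cells, read 195.0, 136.9 and 124.6 in Ezh2 KO cells and 78.0, 61.1 and 42.0 in wild type cells. The genotypes did not overlap, in both the Th1 culture was highest and the unpolarized culture lowest, and the wild type Th2 and unpolarized readings were under the low-signal limit. The difference was 1.35 ± 0.20, or 2.55-fold (95% interval 2.03 to 3.21, adjusted p = 0.0217). A second probe set, with readings up to 83.4, gave -0.24 ± 0.45, and with all probe sets averaged the difference was 0.37 and did not pass (adjusted p = 0.0813). Its receptor genes gave -0.26 ± 0.27 for Tnfrsf13b (TACI; 1705 to 2023 in Ezh2 KO cells, 1982 to 2881 in wild type cells, adjusted p = 0.262) and -0.38 ± 1.1996 for Tnfrsf13c (BAFF receptor; 39.4 to 124.7 in Ezh2 KO cells, 63.7 to 102.8 in wild type cells). Tnfrsf17, which encodes the plasma cell receptor BCMA, never reached the low-signal limit.

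The window before the downstream start of Tnfsf13b (chr8:10006383-10006632, + strand, GRCm38.p6) is shown because it was the only window of a risen member with both an AP-1 and an IRF match, each in capitals.
Tnfsf13b downstream start: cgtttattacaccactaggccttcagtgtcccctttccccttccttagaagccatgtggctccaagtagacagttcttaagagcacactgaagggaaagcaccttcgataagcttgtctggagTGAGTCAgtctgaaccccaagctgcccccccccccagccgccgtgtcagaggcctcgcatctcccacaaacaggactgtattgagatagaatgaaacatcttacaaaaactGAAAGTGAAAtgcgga
Of the 27 members with a window, 4 held the NF-kappaB consensus (Tnfrsf9, Tnfrsf8, Tnfrsf25 and Ltb), 5 the AP-1 motif (Tnfrsf9, Tnfrsf8, Tnfsf13b, Tnfsf14 and Fas) and 4 the IRF motif (Tnfsf13b, Tnfrsf1b, Tnfrsf14 and Tnfrsf17). The matches lay before members that passed and members that did not.

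Tnfsf11, which encodes RANK ligand, the osteoclast factor also made by activated T cells, read 1777 to 2095 in Ezh2 KO cells and 1277 to 1491 in wild type cells. These did not overlap, and the difference of 0.48 ± 0.22 did not pass (adjusted p = 0.0766). A second probe set gave 0.91 ± 0.57. Its receptor gene Tnfrsf11a (RANK) read between 19.2 and 80.4 and gave 0.45 ± 1.499. The decoy receptor gene Tnfrsf11b, and Tnfrsf12a, Tnfrsf19 and Tnfsf13os, also stayed under the low-signal limit on their chosen probe sets, while a second probe set of Tnfrsf12a reached 77.4 on 1 array. With Cd40lg, Tnfrsf10b, Tnfrsf14 and Tnfrsf17 they made up the 8 untested members, whose chosen probe sets read from 1.48 to 63.4.

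Several family genes are neighbours on the chromosome. In the order of protein-coding genes of the RefSeq table, 23 of its 41 family genes lie in 9 blocks with no more than 5 other genes between neighbours. Tnfsf9, Cd70 and Tnfsf14 adjoin each other on chromosome 17, and their differences of 1.32, 2.38 and 0.44 were positive in all 3 cultures each. Of these only Cd70 passed. A second, dimmer probe set of Tnfsf14 gave 0.04 in Th1, -0.07 in Th2 and 1.71 in unpolarized cultures. Ltb, Tnf and Lta, a second adjoining trio on chromosome 17, gave -0.17, 0.14 and -0.25. On chromosome 6, Cd27 fell by 1.15 while Ltbr and Tnfrsf1a, which follow it with 1 other gene between neighbours, gave 0.34 and 0.14. On chromosome 4, Tnfrsf1b adjoins Tnfrsf8 (0.98 and 0.07) and Tnfrsf4 adjoins Tnfrsf18 (0.13 and 0.20), whereas Tnfrsf9 has no family gene next to it. On chromosome 7, Tnfrsf22 and Tnfrsf23 adjoin (0.37 and 1.64).

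Lists of genes that act with the receptors are given by counts, to be read against the 8.37% of all tested genes that were higher and the 8.05% that were lower. Of 16 tested adaptors and ubiquitin ligases, 2 rose and 2 fell, a share near that of all genes, with a median of -0.10. Traf5, an adaptor of CD27, OX40 and GITR, read 258.8, 230.6 and 288.9 in Ezh2 KO cells and 590.9, 544.7 and 619.5 in wild type cells, a difference of -1.18 ± 0.07 (2.26-fold lower, adjusted p = 0.0199). Traf1, an adaptor that is itself induced by NF-kappaB and binds 4-1BB, read 1482, 1329 and 1281 in Ezh2 KO cells and 900.7, 942.6 and 948.5 in wild type cells (0.55 ± 0.15, adjusted p = 0.046). Traf4 fell by 0.90 ± 0.27, and Edaradd, the adaptor of the ectodysplasin receptor, rose by 1.60 ± 0.64, with readings of 167.0 to 176.2 in Ezh2 KO cells and 42.2 to 96.9 in wild type cells. Traf2, the common adaptor of TNF receptors, gave 0.05 ± 0.11.

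Of 11 tested death signalling genes, 2 rose and 1 fell, with a median of 0.23. Mlkl, the executor of necroptosis, read 1462, 1612 and 1235 in Ezh2 KO cells and 438.8, 322.1 and 269.4 in wild type cells (2.09 ± 0.31, 4.24-fold, adjusted p = 0.0199). Apaf1, which assembles the apoptosome, rose by 0.49 ± 0.11, and Diablo, an antagonist of inhibitors of apoptosis, fell by 0.98 ± 0.07. Casp8, the initiator caspase of death receptors, gave 0.01 ± 0.17, and its regulator Cflar 0.39 ± 0.26 (adjusted p = 0.128).

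Of 12 NF-kappaB kinases and factors, 2 rose and 0 fell, with a median of 0.00: Map3k7, which encodes the kinase TAK1, by 0.75 ± 0.11 and Tab2, its binding partner, by 0.72 ± 0.03. Of 10 NF-kappaB inhibitors and feedback genes, 2 rose and 0 fell, with a median of 0.12: Tnfaip8 by 0.74 ± 0.20 and the deubiquitinase Otulin by 0.59 ± 0.06. The NF-kappaB target and brake Nfkbia gave 0.11 ± 0.16 and Tnfaip3 0.44 ± 0.33 (adjusted p = 0.465 and 0.137). Of 6 genes that shed family members from the surface, 0 passed and the median was -0.04, with Rhbdf2 at 1.12 ± 0.57 (adjusted p = 0.0665) and the protease Adam17 at 0.10 ± 0.05. Of 6 family genes outside the naming rule 2 were tested, Fasl and Relt, and Relt gave -0.16 ± 0.10.

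**Figure D4:**
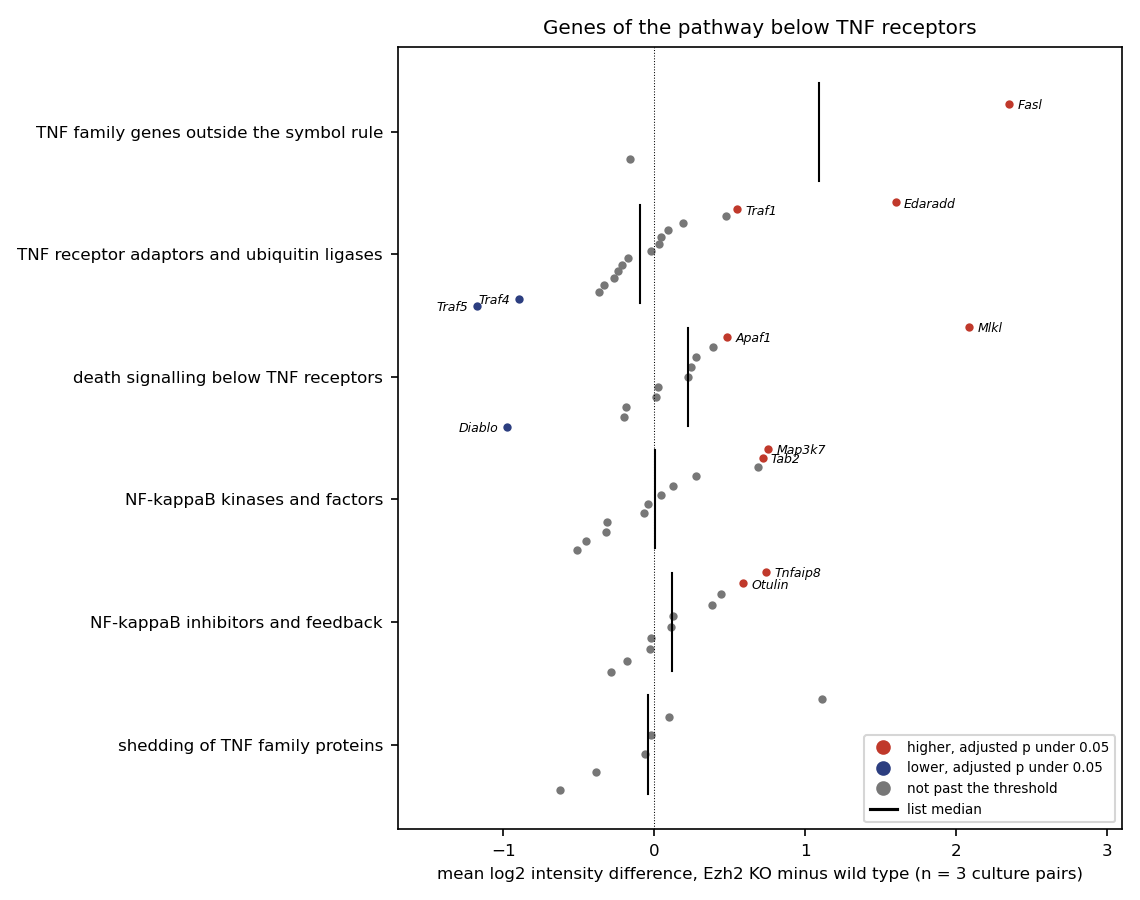
Mean log2 difference in intensity, Ezh2 KO minus wild type, for each tested gene of 6 lists around TNF receptors, with genes past the threshold named and a bar at each list's median. Only Fasl and Mlkl lie beyond 2, and 4 of the 6 medians lie within 0.12 of 0.

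Markers of other cells that express family genes moved in part with genotype. The 7 NK and NKT markers with a probe set summed to 1110 to 1474 in Ezh2 KO and 225.01 to 348.0 in wild type. The median difference of those tested was 2.10. Of 4 tested, 3 rose: Cd160 by 3.71 ± 0.33, Klrk1 by 2.14 ± 0.92 and Fcer1g by 2.05 ± 0.55 (floored values), while Ncr1, Tyrobp and Zbtb16 never reached the low-signal limit. The Klrk1 arrays overlapped between genotypes. The 13 myeloid and dendritic markers, relevant to Tnfsf13b and Tnfsf4, summed to 558.2 to 603.5 in Ezh2 KO and 417.6 to 635.03 in wild type. The median difference of those tested was 0.03. Of 6 tested Mpeg1 rose, by 2.95 ± 0.77 (floored values), and the 7 others, among them Lyz2, Itgam, Itgax and Cd14, were under the limit on all arrays.

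The 7 B cell markers, relevant to Cd70, Cd40 and Tnfrsf13b, summed to 4576 to 6028 in Ezh2 KO and 7437 to 8765 in wild type. Without Ighm the other 6 summed the other way, to 482.02 to 1195 in Ezh2 KO and 216.03 to 396.5 in wild type, and the median difference of the 5 tested was 0.73. Ms4a1 rose by 2.46 ± 1.05 and Ighm fell by 0.79 ± 0.17, with the opposite sign (0.10) for Ighm when all its probe sets were averaged, and Cd79a and Pax5 were under the limit on all arrays. The 7 regulatory T cell markers, relevant to Tnfrsf4, Tnfrsf9 and Tnfrsf18, summed to 15541 to 22798 in Ezh2 KO and 21466 to 24376 in wild type. Their median difference was -0.51 over the 7 tested. Of these Capg fell by 0.55 ± 0.17 (0.37, the opposite sign, with all its probe sets averaged), and Foxp3 read between 34.9 and 69.3. Of the CD4 T cell markers Cd2 fell by 0.64 ± 0.13, of 2 gamma delta T cell markers tested Cd163l1 rose by 1.57 ± 0.39, and 0 of 2 CD8 T cell markers and 0 of 3 plasma cell markers passed. The cultures began from naive CD4 T cells sorted as CD44 low and CD62L high. The part of cells with these markers in the results on family genes was not tested.

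Differences between culture conditions were taken from the model already described, in which each culture has 2 arrays, 1 per genotype. For Th1 against Th2, Th1 against unpolarized and Th2 against unpolarized, 0 of the 28 members passed, as did 0% of all tested genes, with lowest adjusted p-values among members of 0.653, 0.857 and 0.549. In each of the comparisons 3 members had an unadjusted p under 0.05 in limma, against 7.57%, 5.48% and 6.68% of all tested genes. With an intensity trend in the variance, 16, 0 and 5 genes passed, 0 of them members. The comparisons share arrays, so their values are given side by side only.

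Cd27 was lower in Th2 than in unpolarized cultures by 0.69 in Ezh2 KO and by 0.70 in wild type, and higher in Th1 than in Th2 cultures by 0.52 in Ezh2 KO and 0.29 in wild type. Tnfsf8 was lower in Th2 than in unpolarized cultures by 0.78 in Ezh2 KO and 0.40 in wild type. Tnf was higher in Th1 than in Th2 cultures by 1.24 in Ezh2 KO and 0.51 in wild type (limma unadjusted p = 0.0779, adjusted p = 0.676). Over unpolarized cultures, the dim Cd40 was higher by 2.51 in Th1 and 3.27 in Th2 in Ezh2 KO. In wild type these values were 1.68 and 1.64. They came from 1 of 3 Cd40 probe sets. A second dim one read 63.5, 72.2 and 15.8 in Ezh2 KO and 4.60, 55.3 and 45.0 in wild type. There the wild type Th1 reading was below the unpolarized one. The third probe set read no higher than 32.5. Tnfsf13b was higher in Th1 than in unpolarized cultures by 0.65 in Ezh2 KO and 0.89 in wild type. Cd70 (Th1 against unpolarized), Tnfsf13b and Tnfsf14 (Th1 against Th2) also had a limma unadjusted p under 0.05. With 1 array per genotype and culture, whether such differences depend on genotype has no test.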

How the data were processed

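The deposited table gives linear intensities for each probe set on 6 arrays. Per the submitters' processing notes the authors used Affymetrix Expression Console; its version and summarization method are not stated there. With 2% of values trimmed from either end, all arrays averaged 500.003, as after scaling to one target. Symbols came from the platform's annotation table (34945 probe sets with 1 symbol); all 36 members were found in RefSeq GRCm38.p6 by Entrez identifier, and 3 probe sets that name a member among several symbols were left out. Values were floored at the 20th percentile, taken to log2 and fitted with limma 3.58.1 in R 4.3.3 as culture plus genotype (2 residual and 1.66 prior degrees of freedom). Genes with a highest value under 64.4 were not tested. The number of arrays limits precision. The test was checked on simulated data with independent noise on each array, which cannot check arrays that share a mouse or batch. Alternatives covered scaling, filter, floor, probe sets, variance trend, culture block and leaving out a culture. By rule, values by array are given for tested members that passed a genotype or polarization test, differed at least 2-fold on average, or differed at least 2-fold in opposite directions in 2 cultures; other tested members have ranges, and partners of named members their mean and SD. Pathway lists name up to 4 passing genes each, and marker lists all that passed. Tnfrsf1b and Fas by array, the polarization values, and the uncalled pathway genes (Traf2, Casp8, Cflar, Nfkbia, Tnfaip3, Rhbdf2, Adam17 and Relt) fall outside the rule and were chosen after their values were seen. Members and lists were chosen with earlier results of these data known.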

Additional observations from a re-analysis of the deposited data

Results flagged for a closer look

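For 13 tested members the genotype difference (log2, Ezh2 KO minus wild type) had opposite signs in different cultures. With 1 array per group this was not tested. The widest were Tnfrsf21 (3.05 in Th2, -0.71 in unpolarized), Tnfrsf11a (2.07 in Th2, -0.90 in unpolarized) and Tnfrsf13c (0.97 in Th2, -1.31 in unpolarized), each with 3 or more of its 6 readings under the low-signal limit. In unpolarized cultures a second probe set had the opposite sign for Tnfrsf21 (2.07) and for Tnfrsf11a (1.52). Cd40 gave 1.22 in Th2 and -0.41 in unpolarized cultures, and Ltbr 1.00 in unpolarized and -0.16 in Th2 cultures, again dim. Among brighter genes, Lta gave 0.49 in unpolarized and -1.03 in Th2 cultures, Tnf 0.79 in unpolarized and -0.54 in Th2 cultures, and Fas 0.99 in Th1 and -0.41 in unpolarized cultures. The remaining values were 0.0296 in unpolarized and -0.52 in Th2 cultures for Tnfrsf13b, 0.31 in unpolarized and -0.0035 in Th1 cultures for Tnfrsf18, 0.42 in Th1 and -0.22 in Th2 cultures for Tnfrsf25, 0.33 in unpolarized and -0.18 in Th1 cultures for Tnfrsf4, and 0.37 in unpolarized and -0.50 in Th1 cultures for Tnfrsf8.

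A probe set annotated to both Tnfrsf22 and Tnfrsf23, left out of the gene test for its pair of symbols, read higher on all Ezh2 KO arrays than on any wild type array, with a mean log2 difference of 1.60.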

How the results depend on the processing

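The test called 968 genes higher and 931 lower in Ezh2 KO. Centring arrays on their medians changed this to 866 and 413; with the mean-based filter 1871 were lower, without the culture block 1573 were lower, with an intensity trend 1777 were higher and 2204 lower, and with no filter 0 and 0, where 4715 genes had an unadjusted p under 0.05 against 4484. Leaving out any 1 culture, with 1 residual degree of freedom, gave 0 higher and 0 lower among all genes and among members, and 2951 to 3228 genes at an unadjusted p under 0.05. Members higher numbered 0 with no filter, 3 with all probe sets averaged and 11 with the trend, against 6, and members lower 0 with no filter, against 1. The 7 called members were all called again under median centring, quantile normalization, no floor, the higher floor, the trend and no culture block. With the mean-based filter Cd27, Tnfrsf9, Tnfsf10 and Tnfsf4 were called and the 3 dimmer members were not tested. For the culture comparisons, leaving out a genotype leaves 1 array per culture and so gives values by genotype with no test. With the trend, 16 genes passed for Th1 against Th2 and 5 for Th2 against unpolarized.

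Signs turned for uncalled members when a culture was left out, over ranges of -0.23 (without Th1) to 0.47 for Fas, -0.62 to 0.14 (without Th2) for Lta, -0.18 (without unpolarized) to 0.49 for Tnf, -0.35 (without Th2) to 1.13 for Tnfrsf11a, -1.06 to 0.0788 (without unpolarized) for Tnfrsf13c, -0.15 (without Th1) to 0.17 for Tnfrsf25, and -0.0805 (without unpolarized; -0.0669 without Th2) to 0.36 for Tnfrsf8. With all probe sets averaged, Ighm (0.10) and Capg (0.37) turned. The cause was not tested. The model pairs the genotypes by culture, and no further pairing by replicate was possible because each group has 1 array. Signal over background limits Cd70, Tnfrsf23 and the other dim members.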
